A study of Mus musculus with 4 samples.

Results

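Migratory dendritic cells of the mouse lung were taken from droplet-based single-cell RNA libraries of lungs, 1 library each for the groups LPS+RT, LPS, PBS+RT and PBS. Barcodes were kept from 500 UMIs (unique molecular identifiers, tags that count single RNA molecules) and 200 genes upwards, with no more than 10% of UMIs from mitochondrial genes. A kept barcode was counted as a migratory dendritic cell when Ccr7, Fscn1, Ccl22, Cacnb3, Nudt17 and Zmynd15 together gave at least 4 UMIs with at least 3 of the 6 genes detected, when H2-Ab1 plus Cd74 gave at least 5 UMIs, and when Cd79a, Cd3e, Marco, C1qa and Cdh5 were all at 0. The rule found 95 cells among 34440 kept barcodes. The cells numbered 26 of 9917 in LPS+RT, 51 of 9139 in LPS, 7 of 6345 in PBS+RT and 11 of 9039 in PBS. Because the rule reads measured counts, the levels of the genes in it are given as a description only.

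All animals were wild-type (WT) male C57BL/6 mice aged 6 to 7 weeks. LPS and LPS+RT mice received 200 µg of lipopolysaccharide from Escherichia coli O55:B5 into the trachea, a bacterial cell wall product that sets off acute lung inflammation, and PBS and PBS+RT mice received 100 µL of saline buffer. The 2 RT groups were given 1 Gy of X-rays to the thorax the next day. Organs were collected at 48 hours from injection and 24 hours from irradiation. Lungs were dissociated and mononuclear cells were taken from a Ficoll gradient before loading. How many mice went into a library is not given in the sources used here, and since each group is 1 library, the differences are descriptions without replicates or tests. All intervals are 95% intervals that cover counting error only.

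Dendritic cells take up antigen in the lung and, once mature, switch on the chemokine receptor Ccr7 and the actin-bundling protein Fscn1 and follow lymph vessels to the draining lymph node, where they present antigen to T cells. Their precursors in the tissue are conventional dendritic cells of a type 1 lineage, marked by Xcr1 and Clec9a, and of a type 2 lineage. Mature cells carry both costimulators such as Cd80 and Cd86 and inhibitory ligands such as Cd274, and they respond to interferons with guanylate-binding proteins and antiviral genes.

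The libraries held 78669568 UMIs in LPS+RT, 80013887 in LPS, 69119644 in PBS+RT and 65995600 in PBS. The migratory dendritic cells were deeply sampled, with a median of 13802 UMIs per cell in LPS+RT, 15083 in LPS, 18999 in PBS+RT and 14745 in PBS, against 4460, 5641, 8674 and 4375 for all kept barcodes of the same libraries. Summed over the cells this gave 369450 UMIs in LPS+RT, 807906 in LPS, 123764 in PBS+RT and 171186 in PBS, so that the 2 groups without LPS limit the comparisons they enter. Whether libraries shared cell barcodes was not analysed here. No migratory dendritic cell was called a doublet by Scrublet, and the highest score among them was 0.155.

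The share of migratory dendritic cells among kept barcodes was 0.262% in LPS+RT (0.171 to 0.384%), 0.558% in LPS (0.416 to 0.733%), 0.110% in PBS+RT (0.0444 to 0.227%) and 0.122% in PBS (0.0608 to 0.218%). The LPS library had the highest share, and the 2 libraries without LPS lay within each other's intervals. LPS stood 4.59-fold above PBS (2.36 to 9.76) and LPS+RT 2.38-fold above PBS+RT (1.00 to 6.48). Irradiated LPS lungs had a 2.13-fold lower share than LPS lungs (1.30 to 3.56), and the ratio of PBS+RT to PBS was 0.907 (0.298 to 2.56). Among barcodes with a UMI of Ptprc, the pan-leukocyte gene, the shares were 0.502% in LPS+RT, 0.777% in LPS, 0.252% in PBS+RT and 0.304% in PBS, and LPS+RT was then 1.55-fold lower than LPS, with an interval that included no difference (0.905 to 2.73). Depth also moved the ratios. After every barcode was thinned to 2000 UMIs, LPS stood 2.45-fold above PBS (1.24 to 5.19), LPS+RT 4.43-fold above PBS+RT (1.51 to 17.6) and LPS+RT 1.43-fold below LPS (0.823 to 2.54), and the ratio of PBS+RT to PBS was 0.387 (0.0909 to 1.28). Which of the 2 ratios of LPS to saline lungs was the larger thus turned with the depth. The neutrophil set, which moves such shares, held 329 barcodes in LPS+RT, 2257 in LPS, 105 in PBS+RT and 58 in PBS. Outside it the shares were 0.271%, 0.741%, 0.112% and 0.122% in the same order, and its part in the differences was not tested further.

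Conventional dendritic cells, taken by Flt3, Zbtb46, Clec9a, Xcr1, Cd209a and Clec10a with the same class II and lineage conditions, numbered 33 in LPS+RT, 44 in LPS, 29 in PBS+RT and 45 in PBS. Their share of kept barcodes was 0.333% in LPS+RT, 0.481% in LPS, 0.457% in PBS+RT and 0.498% in PBS, and their intervals overlapped between all 4 libraries. Of all dendritic cells by these rules, the migratory ones made up 44.1% in LPS+RT, 53.7% in LPS, 19.4% in PBS+RT and 19.6% in PBS. On this base LPS+RT was 1.22-fold lower than LPS, with an interval that included no difference (0.746 to 2.04).

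**Figure D1:**
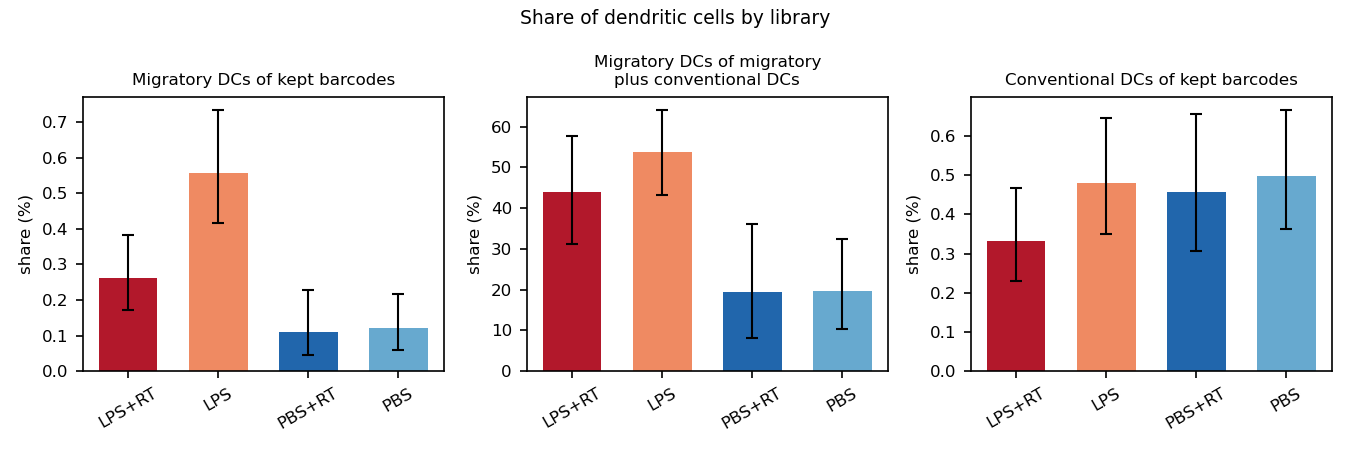
Share of migratory dendritic cells (percent, linear axis) among kept barcodes and among all dendritic cells, and share of conventional dendritic cells among kept barcodes, for LPS+RT, LPS, PBS+RT and PBS. Bars are 1 library each and lines are exact 95% binomial intervals. The migratory share stands highest in LPS, at 0.558% of kept barcodes and 53.7% of dendritic cells. Among dendritic cells its interval (43.2 to 64.0%) overlaps that of LPS+RT (31.2 to 57.6%). The conventional shares have overlapping intervals.

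The marker sum was seldom near its limit, while the number of markers detected was at its minimum in 13 cells. Among the 95 cells, 35 had UMIs of all 6 marker genes, 82 of at least 4, and 13 of exactly 3, and only 2 had a marker sum of 4 to 6. Outside the rule, 38 barcodes met every other condition and reached a sum of 4 with 2 markers detected, 25 with 1 marker, and 22 had a sum of 3. Without the class II and lineage conditions, the markers alone took 48 barcodes in LPS+RT, 79 in LPS, 12 in PBS+RT and 26 in PBS.

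The 6 marker genes had these levels, as CPM, the UMIs of a gene per 1e+06 UMIs of the migratory dendritic cells of a library. Ccr7, the receptor for the lymph node chemokines, stood at 2617 CPM in LPS+RT, 1666 in LPS, 2594 in PBS+RT and 1788 in PBS, against 16.2, 41.1, 11.6 and 6.60 CPM in the conventional dendritic cells of those libraries. Fscn1 stood at 1039 CPM in LPS+RT, 1060 in LPS, 1592 in PBS+RT and 847 in PBS. Ccl22, a chemokine for Ccr4-bearing T cells, was highest in PBS, with 1426 CPM in LPS+RT, 1581 in LPS, 1923 in PBS+RT and 2518 in PBS. Cacnb3, a calcium channel subunit, stayed between 380 CPM in LPS and 638 CPM in PBS+RT, Zmynd15 ran between 418 CPM (LPS) and 824 CPM (PBS), and Nudt17 between 114 CPM in LPS+RT and 46.7 CPM in PBS. On mm10 these genes lie at chr11:99144196-99155077 (Ccr7), chr5:142960343-142973185 (Fscn1) and chr8:94745590-94751699 (Ccl22).

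Dendritic cell genes outside the rule were present under the label. Flt3, the growth factor receptor of the lineage, stood at 244 CPM in LPS+RT, 291 in LPS, 663 in PBS+RT and 333 in PBS, and Zbtb46, its lineage transcription factor, at 152, 181, 307 and 234 CPM in the same order. Both were present in every library. Markers of other lineages were present to unequal degrees. T cell markers summed to 24.4 CPM in LPS+RT, 4.95 in LPS, 0 in PBS+RT and 5.84 in PBS over 7 genes, and NK cell markers to 18.9, 7.43, 16.2 and 0 CPM over 6 genes in the same order. Cd3e, 1 of the T cell markers, and Cd79a, 1 of the B cell markers, were at 0 by the rule. Plasmacytoid markers summed to 257 CPM in LPS+RT, 474 in LPS, 242 in PBS+RT and 350 in PBS, and were found in 22 of 26, 46 of 51, 6 of 7 and 10 of 11 cells in that order. Nearly all of it came from Bst2, which other cells also express under interferon, and Tcf4, while Siglech, Cox6a2 and Klk1 had no UMI in any library. B cell markers summed to 10.8 CPM in LPS+RT, 27.2 in LPS, 32.3 in PBS+RT and 199 in PBS, and erythroid markers to 35.2, 16.1, 40.4 and 199 CPM in the same order. Monocyte markers (Ly6c2, Ccr2, Fcgr1, Ms4a6c, Ace and Treml4) summed to 70.4 CPM in LPS+RT, 448 in LPS, 24.2 in PBS+RT and 46.7 in PBS, with 5 of the 6 detected in LPS and Treml4 at 0 there. At least 4 monocyte marker UMIs were found in 1 of 26 cells in LPS+RT, 15 of 51 in LPS, 0 of 7 in PBS+RT and 1 of 11 in PBS. The 7 neutrophil markers summed to 35.2 CPM in LPS+RT, 246 in LPS, 32.3 in PBS+RT and 0 in PBS, and S100a8 in LPS cells stood at 79.2 CPM, 0.612% of its level in neutrophils. Alveolar type 2 markers reached 24.4 CPM in LPS+RT, 47.0 in LPS, 1034 in PBS+RT and 81.8 in PBS, and 66 of the 91 Sftpc UMIs in PBS+RT were in 1 cell.

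The genes that most set the migratory cells apart from conventional dendritic cells in all 4 libraries were Fabp5, Apol7c, Anxa3, Ccl5, Eno3, Tspan3, Tmem150c, Adcy6, Dpp10, Mreg, Socs2, Slco5a1, Gm13546, Gm35330 and a Pakap locus, taken by the smallest of the 4 log2 ratios, which ran down to 2.89. Since the cells were chosen by measured counts, this is a description of them. Some of the 15 rested on few cells. Gm35330 was found in 1 of 7 PBS+RT and 2 of 11 PBS cells, and Gm13546 in 2 of 11 PBS cells. Apol7c and Dpp10 were each found in 2 of 7 PBS+RT cells. Ccl5, a chemokine for T cells and monocytes, was the most abundant of the 15, at 11739 CPM in LPS+RT, 6008 in LPS, 6028 in PBS+RT and 5766 in PBS, against 46.7, 451, 4.98 and 9.90 CPM in conventional dendritic cells. It was detected in 25 of 26 migratory cells in LPS+RT, 47 of 51 in LPS, 7 of 7 in PBS+RT and 9 of 11 in PBS, whereas B cells had a UMI in 14.5%, 10.7%, 8.76% and 8.62% of cells at medians of 5433, 5234, 7970 and 5631 UMIs. Fabp5, a fatty acid-binding protein, stood at 2496 CPM in LPS+RT, 3061 in LPS, 509 in PBS+RT and 736 in PBS, so it was high in both LPS libraries and lower in both without LPS. Mreg, a protein of vesicle transport, was highest in PBS+RT, with 790 CPM in LPS+RT, 558 in LPS, 2085 in PBS+RT and 461 in PBS. Socs2, a brake on cytokine receptor signalling, kept to a narrow range, with 265, 286, 178 and 193 CPM in that order.

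**Figure D2:**
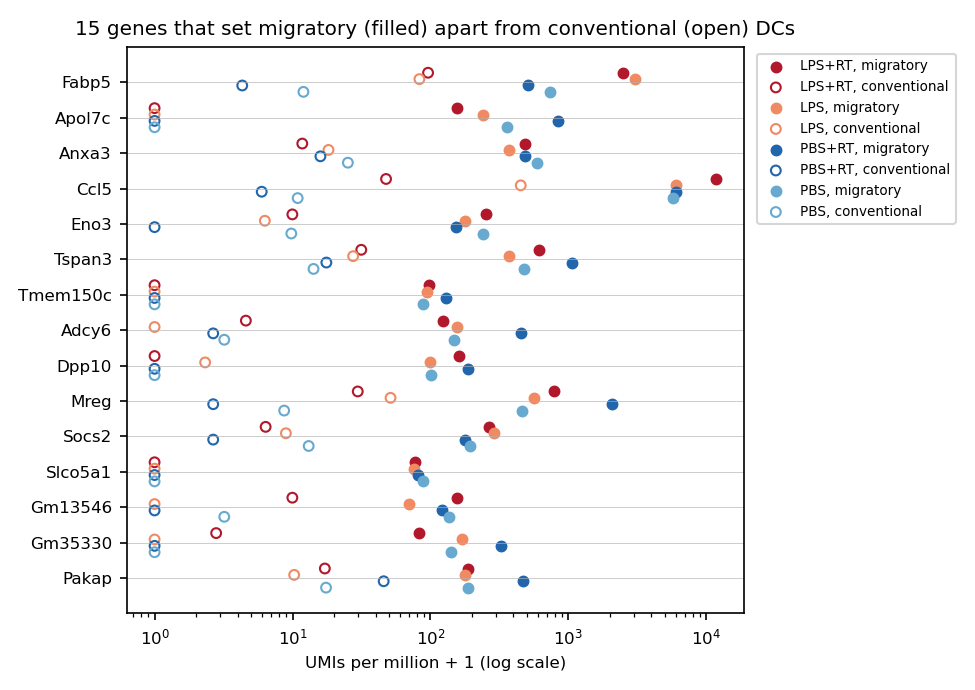
Levels of 15 genes in migratory (filled) and conventional (open) dendritic cells, as CPM plus 1 on a log axis, with 1 point per library for LPS+RT, LPS, PBS+RT and PBS. Ccl5 reaches 11739 CPM in the migratory cells of LPS+RT, against 46.7 CPM in the conventional ones.

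The first comparison, LPS against PBS, asks what an inflamed lung does to these cells. Interferon-response genes, the chemokines Cxcl9, Cxcl10, Ccl3 and Ccl4, the interleukin-1 genes and Cd274 were higher in LPS, and Ccl17 and several genes of the type 1 lineage were lower. The comparison covered 4527 genes with a mean of at least 20 CPM and at least 30 UMIs over both libraries, the genes of the rule left out. A gene counts as different when it was at least 2-fold apart after 10 CPM were added to both values, which held for 767 genes above PBS in LPS (16.9%) and 147 lower (3.25%), with a median log2 ratio of 0.24 over all 4527. The rest of the text uses the same filter and the same log2 ratio.

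Cxcl9, the interferon-gamma-induced chemokine for Cxcr3-bearing T cells (chr5:92321347-92328079), stood at 5.41 CPM in LPS+RT, 691 in LPS and 0 in both PBS+RT and PBS. LPS was at least 39.4-fold above PBS, where a count of 0 was set to a floor of 3 UMIs per library. Its UMIs came from 19 of 51 LPS cells and from 2 of 26 LPS+RT cells. After each cell was thinned to 3000 UMIs the gene remained in 14 of 49 LPS cells and 1 of 25 LPS+RT cells. In B cells of the LPS library, which should lack the gene, 9 of 391 cells (2.30%) had a UMI at a median of 5234 UMIs per cell, against 37.3% of the migratory cells at a median of 15083. Its neighbour Cxcl10 (chr5:92346638-92348889), a second Cxcr3 ligand, stood at 2.71 CPM in LPS+RT, 374 in LPS and 0 in both PBS+RT and PBS, and LPS was at least 21.3-fold above PBS. Conventional dendritic cells had 1252 CPM of Cxcl9 in LPS and 8.80 in PBS.

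The interferon-gamma response had 15 genes that could be compared, of which LPS stood above PBS by this measure for 13 and below it for 0, with a median log2 ratio of 2.35. With the 4 genes at 0 in PBS set to their bounds the median was 1.75. Gbp2, a guanylate-binding protein that acts on intracellular bacteria, stood at 246 CPM in LPS+RT, 668 in LPS, 97.0 in PBS+RT and 123 in PBS, and its relative Gbp5 at 83.9, 314, 80.8 and 35.0 CPM in the same order. Gbp2 and Gbp5 were 5.45-fold (3.53 to 8.87) and 8.97-fold (4.06 to 24.7) higher in LPS. Iigp1, an interferon-inducible GTPase, had 137 CPM in LPS and no UMI in the other 3 libraries. Conventional dendritic cells had a median of 2.58 for this list, and the difference between both cell types was not tested.

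Type I interferon genes gave 10 of 11 higher in LPS and none lower, with a median of 2.80, or 2.01 with 5 genes at their bounds. Isg15, a ubiquitin-like antiviral protein, stood at 70.4 CPM in LPS+RT, 506 in LPS, 80.8 in PBS+RT and 64.3 in PBS, and LPS was 7.88-fold above PBS (4.36 to 15.9). Zbp1, a sensor of viral nucleic acid, stood at 10.8 CPM in LPS+RT, 124 in LPS, 32.3 in PBS+RT and 11.7 in PBS. Ifit1, Ifit2 and Ifit3, which block viral translation, had 82.9, 70.6 and 49.5 CPM in LPS and no UMI in PBS+RT or PBS. In 1 LPS cell were 49 of the 67 Ifit1 UMIs. Without the top cell of each library, the one with the most UMIs of the gene, the log2 ratio of Ifit1 was 1.71 in place of 3.22. Oasl1 was the exception, with 241 CPM in LPS and 181 in PBS, where 25 of its 31 PBS UMIs came from 1 cell.

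Counted per cell, the interferon genes of both lists together made up 0 to 50.5 UMIs per 10000 in LPS+RT cells (median 10.5), 0 to 264 in LPS cells (median 34.2), 0.694 to 27.9 in PBS+RT cells (median 4.97) and 2.16 to 18.1 in PBS cells (median 6.38). Above the highest PBS cell lay 4 of 26 LPS+RT cells, 37 of 51 LPS cells and 2 of 7 PBS+RT cells. The ranges of all 4 libraries overlapped, while the LPS median lay above every PBS cell. Leaving out the cells with at least 4 monocyte marker UMIs gave medians of 1.72 for the interferon-gamma list and 2.58 for the type I list, LPS against PBS.

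**Figure D3:**
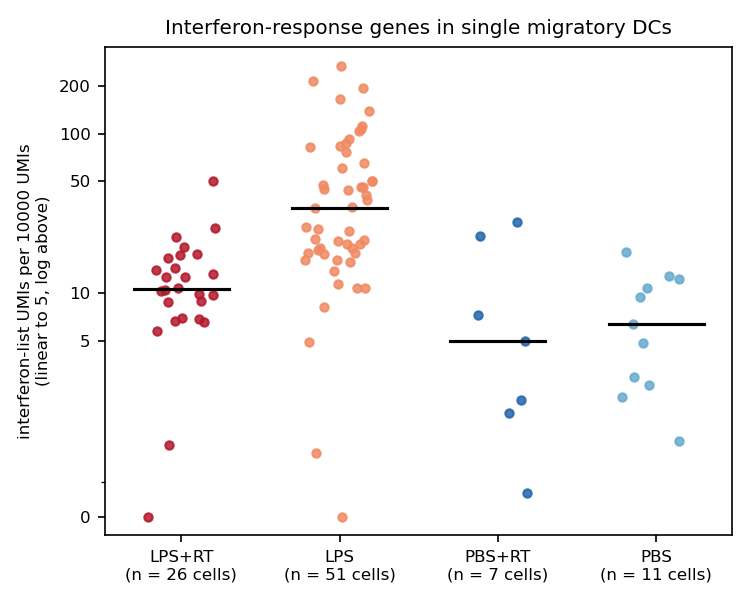
UMIs of the interferon-gamma and type I interferon lists per 10000 UMIs in each migratory dendritic cell (linear to 5, log above), for LPS+RT, LPS, PBS+RT and PBS. Each point is 1 cell and lines are medians. The LPS median of 34.2 lies above the highest PBS cell at 18.1, and the LPS+RT median of 10.5 lies below it.

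Promoters of 3 interferon genes are shown because they carry the letters GAAANNGAAA or their reverse complement, the core of the element bound by interferon regulatory factors. Each line gives the 250 bases before the RefSeq transcript start on GRCm38.p6 in the direction of the gene, with the motif in capitals. Isg15 lies at chr4:156200819-156201068 on the minus strand, Ifit1 at chr19:34640639-34640888 and Ifit3 at chr19:34583279-34583528 on the plus strand.
Isg15: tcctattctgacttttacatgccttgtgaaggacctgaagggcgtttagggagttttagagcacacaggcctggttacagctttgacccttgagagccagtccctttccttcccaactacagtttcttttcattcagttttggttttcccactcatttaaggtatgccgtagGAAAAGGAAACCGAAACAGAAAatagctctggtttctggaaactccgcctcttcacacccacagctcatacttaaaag
Ifit1: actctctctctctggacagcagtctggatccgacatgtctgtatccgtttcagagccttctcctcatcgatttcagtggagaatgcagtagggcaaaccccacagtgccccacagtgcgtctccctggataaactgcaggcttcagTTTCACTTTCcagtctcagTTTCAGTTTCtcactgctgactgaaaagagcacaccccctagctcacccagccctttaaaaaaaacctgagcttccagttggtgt
Ifit3: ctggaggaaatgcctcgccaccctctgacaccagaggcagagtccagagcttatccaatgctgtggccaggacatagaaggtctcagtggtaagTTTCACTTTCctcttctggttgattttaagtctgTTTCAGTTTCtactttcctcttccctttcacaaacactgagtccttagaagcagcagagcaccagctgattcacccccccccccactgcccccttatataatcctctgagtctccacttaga
The motif stood in the promoters of 11 of 17 interferon-list genes that were at least 2-fold lower in LPS+RT than in LPS and had a promoter in the table. Such genes are known to carry this element, and it also stood in the promoters of 1 of 3 genes of these lists that were compared and not lower. Counted by promoter, 11 of the 19 promoters of the lower genes held it (57.9%). Among all 32851 RefSeq promoters of 300 bases, 3.44% held it on either strand. These were not limited to genes compared in the migratory cells. A match is a description of the letters, and no binding was measured.

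Cytokine genes gave 6 of 9 higher in LPS than in PBS and none lower, with a median log2 ratio of 2.15, or 1.31 with 1 gene at its bound. Il12b, the p40 subunit of interleukins 12 and 23, stood at 2084 CPM in LPS+RT, 1537 in LPS, 1010 in PBS+RT and 339 in PBS, and LPS was 4.54-fold above PBS (3.49 to 6.01). It was found in few cells, 11 of 26, 17 of 51, 4 of 7 and 5 of 11 in that order, and in 0 of 391 B cells of the LPS library (median 5234 UMIs), which allows a share of up to 0.767%. In LPS+RT 1 cell held 532 of its 770 UMIs. The log2 ratio of LPS to PBS, 2.15, was 4.89 among cells with an Fscn1 UMI and 1.29 without the cells that carried at least 4 monocyte marker UMIs. Il1b stood at 1131 CPM in LPS+RT, 2049 in LPS, 210 in PBS+RT and 818 in PBS, and LPS was 2.50-fold above PBS (2.11 to 3.00). Its log2 ratio of 1.31 was 0.68 without the monocyte-marked cells, under 2-fold, but 2.03 without the top cell of each library and 4.75 among cells with an Fscn1 UMI. Il1rn, the antagonist of the interleukin-1 receptor, stood at 192 CPM in LPS+RT, 266 in LPS, 0 in PBS+RT and 11.7 in PBS, where 2 UMIs were counted, and LPS was 22.8-fold above PBS (6.23 to 189). Without the monocyte-marked cells its log2 ratio was 1.90, against 3.67 with them.

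Among 7 T cell chemokine genes compared, 4 were higher in LPS than in PBS and 1 lower, with a median of 4.25, or 3.37 with 4 genes at their bounds. Ccl3, a chemokine that draws T cells and monocytes, stood at 119 CPM in LPS+RT, 181 in LPS and 0 in both PBS+RT and PBS. Ccl4, a close relative, stood at 168 CPM in LPS+RT, 319 in LPS and 0 in both libraries without LPS. Ccl17, a ligand of Ccr4, ran the other way, with 1822 CPM in LPS+RT, 1108 in LPS, 1503 in PBS+RT and 2962 in PBS. LPS was thus 2.67-fold below PBS (2.39 to 2.98), yet among cells with an Fscn1 UMI the log2 ratio was 0.12 in place of -1.41. Ccl5 was nearly equal in both, with a log2 ratio of 0.06.

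Among regulators of T cells, 4 of 13 were higher and 3 lower, with a median of 0.55, beside 16.9% and 3.25% of all genes. The list thus went both ways, and its 3 lower genes are not described here. Cd274 (PD-L1), the ligand of the inhibitory receptor PD-1, stood at 422 CPM in LPS+RT, 776 in LPS, 242 in PBS+RT and 146 in PBS, and LPS was 5.31-fold above PBS (3.57 to 8.28). Pdcd1lg2 (PD-L2) stood at 111 CPM in LPS+RT, 236 in LPS, 8.08 in PBS+RT and 52.6 in PBS, and LPS was 4.50-fold above PBS (2.32 to 9.98). Socs3, a brake on Stat3 signalling, stood at 92.0 CPM in LPS+RT, 222 in LPS, 24.2 in PBS+RT and 29.2 in PBS. Costimulators gave 0 of 10 higher and 2 lower, with a median of -0.16. The 2 lower ones are not among the genes given next. Cd80 stood at 522 CPM in LPS+RT, 548 in LPS, 461 in PBS+RT and 567 in PBS, Cd86 at 877, 1144, 558 and 771 CPM, and Cd83 at 1010, 1061, 1430 and 1408 CPM in the same order. Each of these 3 thus stayed within a 2-fold range between LPS and PBS.

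Class II presentation genes outside the rule gave 4 of 13 higher in LPS and none lower. Ciita, the master regulator of class II genes, stood at 43.3 CPM in LPS+RT, 194 in LPS, 0 in PBS+RT and 11.7 in PBS, where 2 UMIs were counted, and LPS was 16.6-fold above PBS (4.53 to 139). H2-Aa, the alpha chain of I-A, stood at 4688 CPM in LPS+RT, 3966 in LPS, 1349 in PBS+RT and 5146 in PBS, which made LPS 1.30-fold lower than PBS (1.20 to 1.40). The direction turned among cells with an Fscn1 UMI, where H2-Aa stood at 3315 CPM in LPS and 1318 in PBS. Among cells without one it stood at 5881 CPM in LPS and 9737 in PBS. Class I genes gave 1 of 16 higher and none lower. That gene was the peptide transporter Tap1, 2.53-fold above PBS (1.52 to 4.52), while the class I light chain B2m (2317 CPM in LPS and 2296 in PBS) and the heavy chain H2-K1 (1665 CPM in LPS and 1606 in PBS) were nearly level.

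Genes of the type 1 lineage gave 1 of 11 higher in LPS and 5 lower, with a median of -0.84, against -0.88 in conventional dendritic cells. Cadm1, an adhesion molecule of that lineage, stood at 62.3 CPM in LPS+RT, 63.1 in LPS, 250 in PBS+RT and 275 in PBS, and LPS was 4.35-fold below PBS (2.86 to 6.59), with 42 of 51 LPS UMIs in 1 cell. Xcr1, the receptor for Xcl1, had 0 CPM in LPS+RT, 30.9 in LPS, 0 in PBS+RT and 75.9 in PBS, and came from 3 LPS cells and 3 PBS cells. Among cells with an Fscn1 UMI its log2 ratio of LPS to PBS was 0.22 in place of -1.07. Clec9a, a receptor for dead cells, had 0, 32.2, 0 and 64.3 CPM in the same order. Itgae rested on single cells, with 43 of 46 UMIs in 1 LPS cell and all 29 in 1 PBS cell, and without the top cell of each library its log2 ratio was 0.49 in place of -1.42, and among cells with Fscn1 0.58.

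The genes with the largest differences by the naming rule were led by Cxcl9, Saa3, Slc7a2 and Cxcl10, in that order. Saa3, an acute-phase protein, had 689 CPM in LPS and 0 in PBS, at least 39.3-fold higher, with 381 of its 557 UMIs in 1 cell. Slc7a2, an arginine transporter, had 464 CPM in LPS and 0 in PBS, at least 26.5-fold higher, Creb5 was at least 16.5-fold, the complement factor Cfb at least 13.3-fold and 4933406J09Rik at least 9.96-fold higher. Plac8 was 50.9-fold higher (9.04 to 2017) over 1 UMI in PBS. Leaving out the monocyte-marked cells gave log2 ratios of 2.25 in place of 6.13 for Saa3, 2.89 in place of 5.57 for Slc7a2, 2.04 in place of 4.61 for Cfb, 3.67 in place of 4.91 for Creb5 and 2.98 in place of 4.28 for Plac8, and so each stayed above 2-fold.

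On the lower side were Itgb8, H2-M2, Txndc16, Timd4, Rhoq, Gclc, Cd36 and Plet1. H2-M2, a class I-like gene, had 2.48 CPM in LPS and 187 in PBS, and was 75.5-fold lower in LPS (19.3 to 650) over 2 UMIs. Timd4, a receptor for apoptotic cells, had 68.1 CPM in LPS and 456 in PBS, 6.69-fold lower (4.68 to 9.63). The scavenger receptor Cd36 had 120 CPM in LPS and 666 in PBS, 5.55-fold lower (4.19 to 7.35), with 83 of 114 PBS UMIs in 1 cell. Single PBS cells also carried 76 of 79 UMIs of Itgb8, 60 of 63 of Rhoq, 68 of 86 of Gclc and 50 of 51 of Plet1. Without the top cell of each library the log2 ratios were -0.31 for Itgb8, 0.53 for Rhoq, -0.64 for Gclc and -0.33 for Plet1. Txndc16 turned to 1.22 when only cells with an Fscn1 UMI were used.

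In the second comparison, LPS+RT against LPS, irradiation of the inflamed lung is the only labelled difference. Of the interferon genes compared, 12 of 15 of the interferon-gamma list and 9 of 11 of the type I list were lower in LPS+RT, as were Cxcl9 and Cxcl10. Il12b, the costimulators and the p53 target Cdkn1a were less than 2-fold apart. Ccl5 was higher in LPS+RT, just under 2-fold, at 11739 CPM against 6008 in LPS. Among cells with an Fscn1 UMI it was just over 2-fold, at 14037 CPM against 6919. Both comparisons share the LPS library, so its high values enter both. Among 4915 genes the 2-fold mark was passed by 67 on the higher side in LPS+RT (1.36%) and by 475 on the lower side (9.66%), with a median log2 ratio of -0.23. A trimmed-mean scaling moved all ratios up by 0.20, and 116 genes were then higher and 324 lower.

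Interferon-gamma response genes gave 12 of 15 lower in LPS+RT and none higher, with a median log2 ratio of -1.72, against -2.12 in conventional dendritic cells. Type I interferon genes gave 9 of 11 lower and none higher, with a median of -2.57, against -2.06. Over 16 settings, the reported one included, the first median ran from -1.89 to -0.98, and over 15 the second ran from -3.40 to -1.09; thinned to 2000 UMIs, neither list gave a median. Cxcl9 was 128-fold lower in LPS+RT (35.2 to 1056) over 2 UMIs, and Cxcl10 138-fold lower (24.6 to 5473) over 1 UMI. Iigp1 was at least 16.9-fold lower, Ifit2 at least 8.69-fold and Ifit3 at least 6.10-fold lower. Isg15 was 7.19-fold lower (4.84 to 11.1), Zbp1 11.4-fold (4.33 to 42.8), Oasl1 11.1-fold (5.55 to 26.2), Gbp5 3.75-fold (2.57 to 5.63) and Gbp2 2.71-fold lower (2.17 to 3.43). These 10 genes were picked as lower ones. Gbp2 at 246 CPM in LPS+RT was above its PBS level of 123 CPM. Gbp5, Isg15, Cxcl9 and Cxcl10 also stood above PBS in LPS+RT, Cxcl9 by 2 UMIs and Cxcl10 by 1. Zbp1 and Oasl1 stood below PBS, and Iigp1, Ifit2 and Ifit3 had no UMI in either library. At least 4 monocyte marker UMIs were found in 1 of 26 LPS+RT cells and 15 of 51 LPS cells. The part of these cells in the interferon differences was not tested. Without those cells the medians were -1.42 for the interferon-gamma list and -2.79 for the type I list.

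Other genes named by rule on the lower side were Saa3, Calhm6, Ms4a4c, Ly6e and Cyp7b1. Calhm6, a channel protein of activated myeloid cells, had no UMI in LPS+RT and 105 CPM in LPS, at least 13.0-fold lower. Ms4a4c had 8.12 CPM in LPS+RT and 196 in LPS, 24.1-fold lower (8.09 to 118), and Ly6e, an interferon-inducible surface protein, had 24.4 CPM in LPS+RT and 326 in LPS, 13.4-fold lower (6.93 to 29.5). Cyp7b1 was 41.6-fold lower (7.28 to 1661) over 1 UMI, with 72 of its 91 LPS UMIs in 1 cell. Saa3 was 127-fold lower (35.1 to 1054) over 2 UMIs, and without the monocyte-marked cells its log2 ratio was -1.61 in place of -5.50.

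Among the few genes higher in LPS+RT, the rule named H2-M2, Ltc4s, Clu, 2410006H16Rik, Rrad, Dkk2, Snhg12 and Sgk1. Ltc4s, which makes leukotriene C4, had 83.9 CPM in LPS+RT, 3.71 in LPS, 40.4 in PBS+RT and 75.9 in PBS, so LPS was the low library, and LPS+RT was 22.6-fold above it (7.05 to 116) over 3 UMIs. H2-M2 had 97.4 CPM in LPS+RT, 2.48 in LPS, 154 in PBS+RT and 187 in PBS, with LPS again the low library, and 25 of its 36 LPS+RT UMIs were in 1 cell. Clusterin (Clu), a secreted chaperone, had 152 CPM in LPS+RT and 22.3 in LPS, 6.80-fold higher (3.94 to 12.3). The non-coding RNA genes 2410006H16Rik and Snhg12 were 3.88-fold (3.13 to 4.84) and 4.26-fold (2.39 to 7.84) higher, Rrad was 4.12-fold (2.51 to 6.91) and Dkk2, a Wnt pathway regulator, 5.35-fold (2.37 to 13.2) higher. Sgk1, a kinase, had 130 CPM in LPS+RT and 34.7 in LPS, 3.75-fold higher (2.30 to 6.21), with 28 of 48 UMIs in 1 LPS+RT cell. Its log2 ratio of 1.65 was 0.90 without the top cell of each library, under 2-fold, and -0.61 when thinned to 2000 UMIs.

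Targets of p53, which irradiation is known to activate, did not stand apart by their count. Of 9 compared, none was 2-fold higher or lower in LPS+RT than in LPS, beside 1.36% and 9.66% of all genes, and the median was 0.36, against 0.38 in conventional dendritic cells. Cdkn1a, the cell cycle inhibitor, stood at 409 CPM in LPS+RT, 316 in LPS, 396 in PBS+RT and 397 in PBS. LPS+RT was 1.29-fold above LPS (1.05 to 1.59), and the log2 ratio of PBS+RT to PBS was -0.00. Mdm2, the ligase that degrades p53, stood at 73.1 CPM in LPS+RT, 129 in LPS, 80.8 in PBS+RT and 35.0 in PBS, and was 1.76-fold lower in LPS+RT than in LPS (1.14 to 2.80). In LPS against PBS 3 of 8 targets were higher and 1 lower, Mdm2 among the higher at 3.67-fold (1.63 to 10.2).

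Cd274 was 1.84-fold lower in LPS+RT than in LPS (1.54 to 2.20), and Pdcd1lg2 2.13-fold lower (1.51 to 3.06). Ciita was 4.49-fold lower (2.68 to 8.04) and H2-DMa, which loads peptide onto class II, 2.22-fold lower (1.59 to 3.16), at 116 CPM in LPS+RT and 259 in LPS. They were among 4 of 12 class II genes lower in LPS+RT, with none higher and a median of -0.13. Costimulators gave 0 of 10 in either direction, and Cd40, the receptor for T cell help, stood at 189 CPM in LPS+RT, 339 in LPS, 56.6 in PBS+RT and 169 in PBS. Of the type 1 lineage genes, 4 of 9 were lower in LPS+RT and none higher. Their median log2 ratio was -0.90, and 0.235 without the cell with the most UMIs in each library. Cell cycle genes gave 5 of 7 lower in LPS+RT and 5 of 7 higher in LPS than in PBS, and 89 of the 90 Top2a UMIs of LPS came from 1 cell. Without the top cell of each library, the log2 ratio of Top2a was 0.46 in LPS+RT against LPS, in place of -2.74, and 0.18 in LPS against PBS, in place of 3.60.

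**Figure D4:**
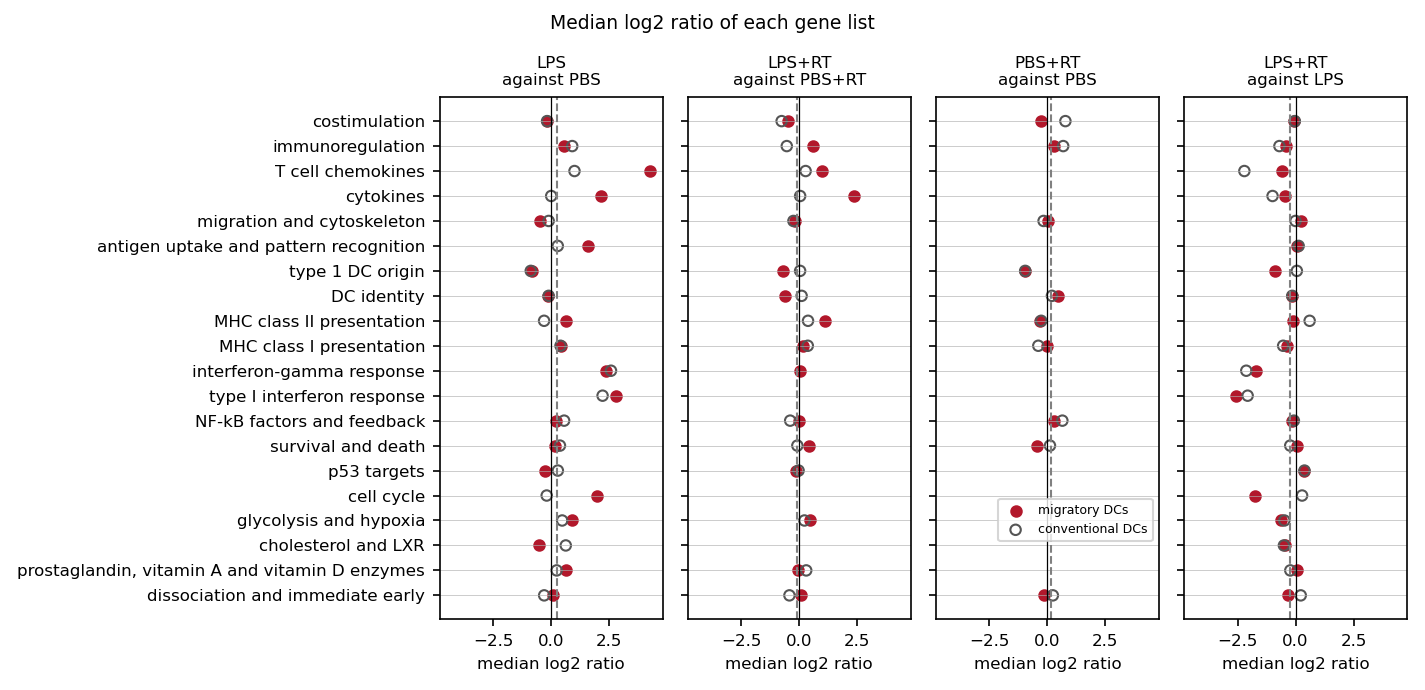
Median log2 ratio (10 CPM added) of each gene list with at least 5 compared genes, in migratory (filled) and conventional (open) dendritic cells, for the 4 comparisons. The dashed line is the median of all genes compared in the migratory cells. The interferon-gamma list stands at 2.35 in LPS against PBS and at -1.72 in LPS+RT against LPS.

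The third comparison, LPS+RT against PBS+RT, sets both irradiated lungs side by side and rests on only 7 PBS+RT cells. Il1b, Il1rn, Ccl3 and Ccl4 and the class II genes H2-Aa and H2-Eb1 were higher in LPS+RT, and Ttc39b was lower. Of 2446 genes, 271 were higher in LPS+RT (11.1%) and 373 lower (15.2%), with a median log2 ratio of -0.09. Trimmed-mean scaling moved all ratios up by 0.28, and 416 genes were then higher and 228 lower. Cytokines gave 4 of 5 higher and 1 lower, with a median of 2.37, against 0.04 in conventional dendritic cells. Il1b was 5.39-fold above PBS+RT (3.62 to 8.34), and all 26 of its PBS+RT UMIs were in 1 cell. Il1rn was at least 7.93-fold, Ccl4 at least 6.92-fold and Ccl3 at least 4.91-fold above PBS+RT. Il6 had 230 CPM in LPS+RT and 8.08 in PBS+RT, 28.5-fold higher (4.97 to 1138) over 1 UMI, with 79 of its 85 LPS+RT UMIs in 1 cell, and without the monocyte-marked cells its log2 ratio was 0.57 in place of 3.73. Il12b was 2.06-fold higher (1.71 to 2.51), and its log2 ratio of 1.04 was -0.59 without those cells and 0.14 without the top cell of each library.

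Interferon-gamma response genes gave 1 of 5 higher and 1 lower in LPS+RT against PBS+RT, with a median of 0.05. Gbp5 was 1.04-fold higher (0.496 to 2.37). Gbp2 was the higher one, at 2.54-fold (1.39 to 5.10). Only 1 type I gene passed the filter, Isg15, which was 1.15-fold lower (0.494 to 2.46). None of 7 p53 targets was 2-fold apart. Class II genes gave 4 of 8 higher and none lower, with a median of 1.10, or 0.07 among cells with an Fscn1 UMI. H2-Aa was 3.47-fold (2.96 to 4.10) and H2-Eb1 4.75-fold (3.93 to 5.80) above PBS+RT.

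Genes named by rule on the higher side were Cxcl3, Cdc42ep3, Ptgs2, Slc7a11, Hilpda, Runx2, Inhba and Il6. Cxcl3, a neutrophil chemokine, had 265 CPM in LPS+RT, 209 in LPS and 0 in both PBS+RT and PBS, and LPS+RT was at least 10.9-fold above PBS+RT, with 65 of its 98 LPS+RT UMIs in 1 cell. Ptgs2, the prostaglandin-making cyclooxygenase, had 466 CPM in LPS+RT, 412 in LPS, 16.2 in PBS+RT and 111 in PBS, and LPS+RT was 28.8-fold above PBS+RT (7.86 to 240) over 2 UMIs. Slc7a11, the cystine transporter, had 717 CPM in LPS+RT, 381 in LPS, 32.3 in PBS+RT and 81.8 in PBS, 22.2-fold above PBS+RT (8.57 to 82.1). The pattern of these 3 genes was the same in that both LPS libraries stood above both libraries without LPS. Cdc42ep3, an effector of Cdc42 in the cytoskeleton, was at least 7.59-fold higher, though PBS had 81.8 CPM. Hilpda, a lipid droplet protein, was at least 6.25-fold, Runx2 at least 5.58-fold and Inhba, a subunit of activin, at least 5.36-fold higher.

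On the lower side were Plxdc2, Il18r1, Serpinb1a, 1810064F22Rik, Usp6nl, Vrk2 and Ttc39b. Ttc39b had 48.7 CPM in LPS+RT and 372 in PBS+RT, 7.63-fold lower (4.34 to 14.0), Usp6nl was 11.9-fold (4.76 to 35.7) and 1810064F22Rik 12.4-fold (4.98 to 37.1) lower. Others rested on single PBS+RT cells, which held all 56 UMIs of Plxdc2, 26 of 35 of Il18r1, 47 of 50 of Serpinb1a and 77 of 86 of Vrk2. Without the top cell of each library the log2 ratio was 0.36 for Plxdc2 in place of -4.67, -0.94 for Serpinb1a and -0.08 for Vrk2.

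The fourth comparison, PBS+RT against PBS, asks what irradiation alone left in these cells and rests on 7 and 11 cells. H2-Aa, H2-Eb1, Il1b and Cd40 were lower in PBS+RT, and Nfkb1 and Il12b higher. Of 1571 genes, 309 were higher in PBS+RT (19.7%) and 145 lower (9.23%), with a median log2 ratio of 0.16. H2-Aa was 3.81-fold lower in PBS+RT (3.23 to 4.53) and H2-Eb1, at 913 CPM in PBS+RT and 4521 in PBS, was 4.95-fold lower (4.06 to 6.09). An Fscn1 UMI was lacking in 0 of 7 PBS+RT cells and 5 of 11 PBS cells. Among cells with one, the log2 ratios were 0.03 for H2-Aa in place of -1.92 and -0.54 for H2-Eb1 in place of -2.30. The part of this makeup in the difference was not tested. Il1b was 3.89-fold lower (2.55 to 6.17) with a log2 ratio of -1.91 that was 1.79 among cells with Fscn1 and -5.48 without the top cell of each library. Cd40 was 3.00-fold lower (1.28 to 8.10).

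Nfkb1, a subunit of NF-kB, was 2.35-fold higher in PBS+RT than in PBS (1.76 to 3.14) and Il12b 2.98-fold higher (2.17 to 4.14). The log2 ratio of Il12b, 1.55, was 4.27 among cells with Fscn1. Nfkb1 had 69 of 134 PBS+RT UMIs in 1 cell, and after each barcode was thinned to 2000 UMIs its log2 ratio was -5.89 in place of 1.21, and without the top cell of each library 0.63. NF-kB factors and feedback genes gave 2 of 15 higher and 5 lower, with Tnfaip2 7.47-fold lower (2.33 to 38.2). Bcl2l1, a survival factor, had 32.3 CPM in PBS+RT and 292 in PBS, 9.04-fold lower (3.32 to 34.5). Class I genes gave 0 of 12 and p53 targets 0 of 4 in either direction. Of the type 1 lineage genes, 3 of 7 were lower and none higher, Wdfy4 and Irf8 among them, which stood at 0.12 and 0.17 among cells with Fscn1.

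By rule, Chpt1, Il18r1, Plcl1, Abtb2, Pde4d, Cdc14a, Adgrg6 and Cep85l were named on the higher side. Abtb2 had 514 CPM in LPS+RT, 391 in LPS, 1123 in PBS+RT and 123 in PBS, and PBS+RT was 9.16-fold above PBS (5.76 to 15.3). Pde4d, which breaks down cyclic AMP, had 663 CPM in LPS+RT, 260 in LPS, 1495 in PBS+RT and 187 in PBS, with a ratio to PBS between 5.47 and 12.0. In PBS+RT 1 cell held 77 of the 139 Abtb2 UMIs and 88 of the 185 Pde4d UMIs, and after thinning to 2000 UMIs per barcode, which left 4 PBS+RT cells, the log2 ratio of Pde4d was -4.45 in place of 2.93. Adgrg6, an adhesion receptor, had 501, 314, 533 and 64.3 CPM in that order, 8.30-fold above PBS (4.35 to 17.4), so PBS was its low library. Plcl1 was 10.9-fold (4.94 to 28.3), Cdc14a 10.0-fold (3.52 to 39.3), Cep85l 8.99-fold (3.78 to 26.0) and Chpt1 24.2-fold (6.22 to 208) above PBS, the last over 2 UMIs. Il18r1 had 26 of its 35 PBS+RT UMIs in 1 cell. Lower in PBS+RT were Rasgef1b, Plet1, Nr4a1, Txndc16, Odc1, Wdfy4 and Rhoq. Among cells with Fscn1, 4 of these were no longer 2-fold lower, with log2 ratios of -0.20 for Plet1, 0.85 for Txndc16, 0.12 for Wdfy4 and 0.43 for Rhoq, in place of -4.09, -3.40, -3.22 and -3.16. Without the top cell of each library they were -0.82 for Plet1 and -0.19 for Rhoq. Rasgef1b had no UMI in PBS+RT and 199 CPM in PBS, at least 8.19-fold lower, Nr4a1, an immediate early nuclear receptor, was 21.0-fold lower (5.55 to 177) and Odc1, the rate-limiting enzyme of polyamine synthesis, 15.9-fold lower (4.15 to 135), each of these 2 over 2 UMIs in PBS+RT.

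Within the migratory cells, class II levels were higher in the cells without a UMI of Fscn1. Of the 95 cells, 18 had no Fscn1 UMI, 4 of 26 in LPS+RT, 9 of 51 in LPS, 0 of 7 in PBS+RT and 5 of 11 in PBS. Their median depth was 15542 UMIs, against 14399 in the cells with Fscn1. By library it was higher in LPS+RT (19192.5 against 13246.5) and LPS (15960 against 14355.5) and lower in PBS (13898 against 16608.5). The part of depth in the missing Fscn1 UMIs was not tested. H2-Aa plus H2-Eb1 made up a median of 122 UMIs per 10000 in cells without Fscn1 (4.76 to 328) and 40.4 in cells with it (0 to 303). In PBS, H2-Aa stood at 9737 CPM in the cells without Fscn1 and 1318 CPM in those with it. PBS cells without Fscn1 had 462 CPM of Ccr7 against 2893 in those with it, and 180 of Cacnb3 against 739. Ccl5 stood at 385 against 10253 CPM and Socs2 at 25.7 against 332. These genes were lower without Fscn1 in LPS+RT and LPS as well. Itgax ran the other way, in PBS at 128 against 21.4 CPM. How close these cells stand to conventional dendritic cells was not tested. Fscn1, Ccr7, Cacnb3, H2-Ab1 and Cd74 belong to the rule, so these values describe the cells the rule takes in. Per library the class II medians were 38.4 UMIs per 10000 in LPS+RT, 81.3 in LPS, 13.3 in PBS+RT and 15.9 in PBS, with ranges that overlapped.

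**Figure D5:**
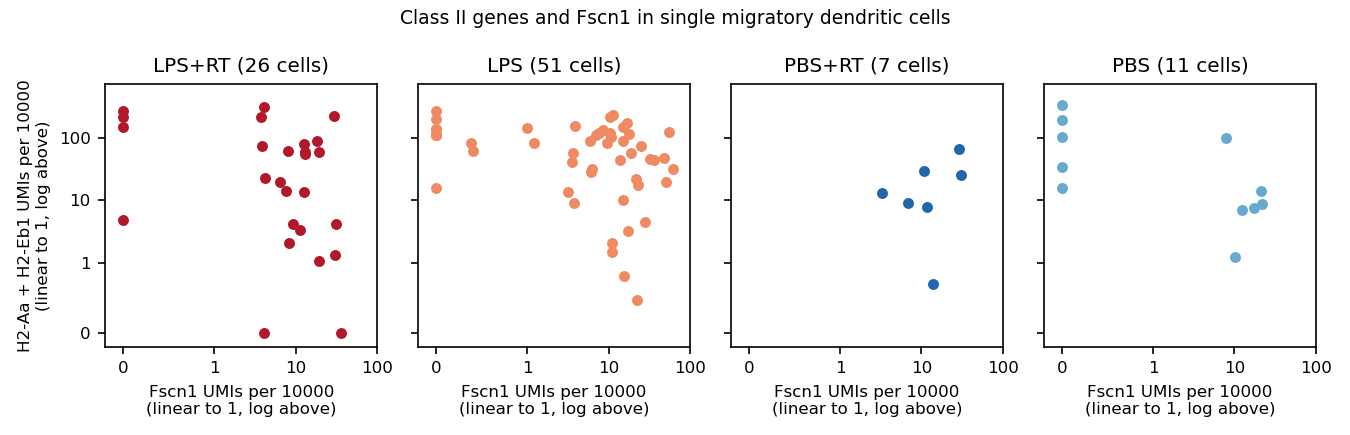
UMIs of H2-Aa plus H2-Eb1 per 10000 against UMIs of Fscn1 per 10000 in each migratory dendritic cell (both axes linear to 1, log above), for LPS+RT, LPS, PBS+RT and PBS. Each point is 1 cell. In PBS 5 of 11 cells lie at 0 on the Fscn1 axis, and in PBS+RT 0 of 7 do.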

How the data were processed

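Per the file headers, the deposited matrices hold raw UMI counts for every gene and barcode and came from Cell Ranger 7.0.1. The submitters' processing notes also name R 4.2.2, Seurat 4.3.0 and the mm10 build, and the kit was the 10x 3' version 3.1, per the labels. No step after counting by the authors enters the values here. The files list 32285 genes, of which 32158 had a position in GENCODE M21.

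UMIs were summed over the migratory dendritic cells of a library and divided by their total (CPM). Genes with a mean of at least 20 CPM and at least 30 UMIs over both libraries were compared as log2 ratios with 10 CPM added. Shares have exact Clopper-Pearson intervals and ratios exact conditional binomial intervals, from SciPy 1.17.1. Scrublet was run through scanpy 1.11.5. Its own threshold of 0.731 called no barcode in LPS, so 0.3 was used there, chosen after seeing this. The share called was 2.78% in LPS+RT, 2.31% in LPS, 2.19% in PBS+RT and 1.46% in PBS. Named genes were the 8 highest and 8 lowest ratios per comparison that had UMIs in at least 10% of the cells of the higher library and were no marker of another cell type, with members of each gene list and the 15 genes furthest from conventional dendritic cells. B cells and neutrophils were barcodes with at least 4 of their markers and 6 UMIs of them. The fold and thinning steps were checked on simulated data. Some genes that the rule names are not reported here. The members and the gene lists were chosen with earlier results of these data known.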

Additional observations from a re-analysis of the deposited data

Results flagged for a closer look

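Among 1567 genes compared both with and without LPS, 24 were at least 2-fold higher with irradiation in the PBS lungs and at least 2-fold lower with it in the LPS lungs, and 6 ran the other way. Over all genes compared, 19.7% were higher and 9.23% lower in PBS+RT against PBS. In LPS+RT against LPS, 1.36% were higher and 9.66% lower. Whether the 24 and 6 genes exceed what these shares give together was not tested. These opposite differences were not tested, and the PBS pair rests on 7 and 11 cells. Single cells held much of some values named here, with all 56 PBS+RT UMIs of Plxdc2, 47 of 50 of Serpinb1a, 77 of 86 of Vrk2, 25 of 39 of Cep85l and 17 of 25 of 1810064F22Rik, and with 76 of the 79 PBS UMIs of Itgb8. Among genes named in the report, the log2 ratio of LPS+RT to LPS was -1.21 for 1810064F22Rik, -1.05 for Cep85l, -3.07 for Plxdc2, -1.50 for Serpinb1a, -1.35 for Usp6nl and -1.38 for Vrk2. The log2 ratio of PBS+RT to PBS was 2.43 for 1810064F22Rik, 2.85 for Cep85l, 1.57 for Plxdc2, 1.41 for Serpinb1a, 1.70 for Usp6nl and 1.72 for Vrk2. In the other direction, 2410006H16Rik had 1.90 in LPS+RT against LPS and -1.01 in PBS+RT against PBS, and Itgb8 had 1.44 in LPS+RT against LPS and -1.85 in PBS+RT against PBS.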

How the results depend on the processing

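With 1 library per group the intervals cover counting error only, and the 7 PBS+RT and 11 PBS cells limit 3 of the 4 comparisons. No paired analysis was possible because there was 1 library per group. Of 128 gene counts under other settings, 92 were within 1.5 times the reported ones, as were 40 of 48 ratios of shares. Of the other 8, only LPS+RT against LPS among all dendritic cells left the counting interval of the reported ratio, at a log2 ratio of -0.28. Thinning to 2000 UMIs moved 3 of them, LPS against PBS to 2.45-fold, LPS+RT against PBS+RT to 4.43-fold and PBS+RT against PBS to 0.387. List medians changed sign in 81 of 963 cases, in each with a reported median of at most 0.95 in size. Among cells with Fscn1, T cell chemokines in LPS+RT against LPS gave 0.47 in place of -0.56 and class II genes in PBS+RT against PBS 0.034 in place of -0.33. The settings that use only cells with Fscn1, leave out monocyte-marked cells or leave out the top cell were chosen after seeing the data. For the log2 ratio of a gene, the top cell of a library was the one with the most UMIs of that gene. For gene counts and list medians, and for a gene without a UMI in the library, it was the cell with the most UMIs in all. The cause of each shift below was not tested.

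Counts are given as higher/lower. Thinning to 2000 UMIs per barcode gave 77/27 in LPS against PBS, 23/31 in LPS+RT against LPS, 42/22 in LPS+RT against PBS+RT and 6/15 in PBS+RT against PBS. Adding 50 CPM gave 269/56, 18/120 and 138/225 in the first 3 of these. A mean of at least 100 CPM gave 183/68 and 25/103 in the first 2 and 116 higher in LPS+RT against PBS+RT. No filter beyond 1 UMI gave 1410/560, 175/823, 1405/1372 and 1483/1661 in the same order. Adding 1 CPM gave 101/713 in LPS+RT against LPS. Trimmed-mean scaling gave 116 higher in LPS+RT against LPS and 416/228 in LPS+RT against PBS+RT. In PBS+RT against PBS, 75 genes were lower among cells with Fscn1, 82 without the monocyte-marked cells and 94 without the top cells, and 91 were lower in LPS against PBS without the monocyte-marked cells.

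Of 3857 log2 ratios of named genes under other settings, 36 had the opposite sign to a reported ratio of at least 2-fold. Sign changes of smaller reported ratios were not counted. With up to 1 UMI of the absent genes, LPS+RT against PBS+RT gave -1.03 for H2-DMa and -0.76 for Socs3. Thinned to 2000 UMIs, LPS against PBS gave 3.03 for Rhoq and 0.54 for Bcl2l1, LPS+RT against PBS+RT gave 1.67 for Il18r1, 2.42 for Serpinb1a and -0.48 for Tnfaip2, PBS+RT against PBS gave -4.45 for Pde4d, 4.70 for Rhoq and -5.89 for Nfkb1, and LPS+RT against LPS gave -0.61 for Sgk1. Among cells with Fscn1, LPS against PBS gave 1.22 for Txndc16, 1.22 for Rhoq, 0.12 for Ccl17, 0.22 for Xcr1 and 0.58 for Itgae, PBS+RT against PBS gave 0.85 for Txndc16, 0.12 for Wdfy4, 0.43 for Rhoq, 1.79 for Il1b, 0.034 for H2-Aa, 0.17 for Irf8 and 1.39 for Itgae, and LPS+RT against LPS gave 0.80 for Top2a. Without monocyte-marked cells, LPS against PBS gave 0.32 for Rhoq, LPS+RT against PBS+RT gave -0.59 for Il12b, PBS+RT against PBS gave 0.039 for Plet1, 0.37 for Rhoq, 0.16 for Irf8 and 1.39 for Itgae, and LPS+RT against LPS gave 0.88 for Top2a. Without the top cells, LPS against PBS gave 0.53 for Rhoq and 0.49 for Itgae, LPS+RT against PBS+RT gave 0.36 for Plxdc2, PBS+RT against PBS gave 1.02 for Itgae, and LPS+RT against LPS gave 0.46 for Top2a.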
